A study of Mus musculus with 2 samples.

Results

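Arginine, creatine and polyamine metabolism was examined at the mRNA level through 8 genes picked by symbol: Ass1, Asl, Nos2, Agmat, Gatm, Oat, Odc1 and Sat1. All 8 were found among the 20002 genes of the table. The study asked what loss of Regnase-2, an RNase encoded by Zc3h12b, does to the renal proximal tubule. Bulk RNA-seq of poly(A) RNA from kidney was compared between 2 libraries, 1 labelled Control and 1 labelled CKO. The mice were C57BL/6J animals on standard chow without drug treatment. Control mice had received control AAV9, an adeno-associated virus vector, which the methods call an empty vector in 1 place and a control shRNA in another. The labels call the CKO group a conditional knockout of Reg-2 in proximal tubules, whereas the methods describe AAV9 with an shRNA against Regnase-2 given by tail vein, which is a knockdown and which the methods say favours proximal tubules. Injection was at 11 weeks of age, and the methods place the harvest at 14 weeks for RNA-seq and at 16 weeks for the AAV9 work. The labels give whole kidneys and the methods the left kidney, and whether a library came from 1 mouse or from a pool was not stated.

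Each group had 1 library, so differences lack a replicate check and were not tested. The deposited whole numbers, which the authors name normalized counts, were never below 35 in the control column or 51 in the CKO column. From these columns 34 and 50 were subtracted, and the results are called reads here. The control library then held 38851231 reads and the CKO library 43588721. To set the libraries on a common scale, CKO reads were multiplied by 0.667, the median gene-wise control/CKO ratio; these are the scaled reads. A log2 ratio is CKO over control in scaled reads with a pseudocount of 1, and it was read for the 17469 genes that reached 10 scaled reads in either library. Brackets after a log2 ratio hold a 95% Clopper-Pearson interval, and intervals of ratios between genes are also at 95%. All cover counting error only. They treat the subtracted values as raw counts, an assumption that was not checked, so true counting error may differ. A gene was called higher or lower from a 2-fold difference on, by the log2 ratio. Folds and multiples of the control level are printed without the pseudocount. With all genes pooled, the scaled reads had a log2 ratio of -0.42, so scaling to equal totals instead raised all ratios by close to that amount. Zc3h12b, the targeted gene (chrX:95711678-95932637 in GRCm38), gave 47 control and 59 CKO reads. Its log2 ratio was -0.25 [-0.83 to 0.33]. The interval lay inside 2-fold and included 0. With equal totals the ratio turned to 0.16 [-0.42 to 0.75], and the same held for its interval. A fall of the target mRNA was thus not detected in whole kidney, and counting error leaves room only for one smaller than 2-fold.

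The kidney makes much of the body's arginine: proximal tubule cells take up citrulline from the blood, Ass1 joins it to aspartate, and Asl splits the product into arginine and fumarate. Arginine is then released, oxidized to nitric oxide by nitric oxide synthases, or joined to glycine by Gatm to make guanidinoacetate, the precursor from which the liver makes creatine. Ornithine feeds proline and glutamate through Oat, or the polyamines putrescine, spermidine and spermine through Odc1, and Sat1 marks spermidine and spermine for export and breakdown.

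Odc1 had the lowest log2 ratio of the 8 genes (-1.79) and Oat the highest (0.63), and the enzymes that make arginine (Ass1, Asl) and start creatine synthesis (Gatm) had ratios below 0. At the 2-fold threshold, 0 of the 8 genes were called higher and 2 were called lower (Odc1 and Asl), and 6 lay within 2-fold. Over all 17469 genes, 13.4% were called higher and 5.35% were called lower. The median log2 ratio of the 8 genes was -0.70, against 0.022 for all genes, and -0.084 when the deposited values were used unchanged. Scaling to equal totals left only Odc1 called lower and put Oat past the threshold as higher. Counted by sign, 3 of the 8 ratios were above 0 and 5 were below.

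**Figure D1:**
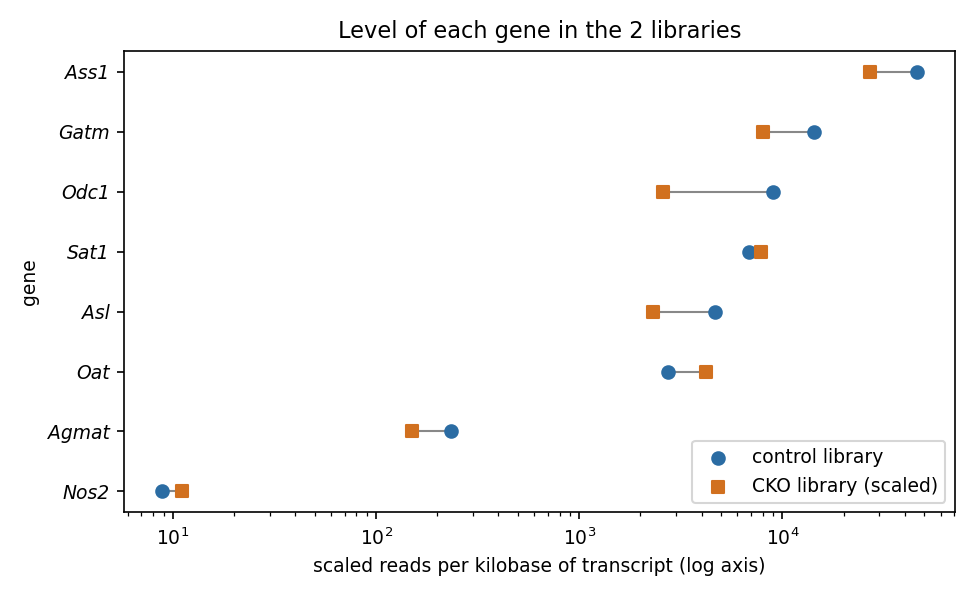
Level of each gene in the control library (blue circles) and the CKO library (orange squares), in scaled reads per kilobase of its longest transcript on a log axis. Lines join the libraries for each of the 8 genes; levels run from 8.83 for Nos2 to 45949 for Ass1 in the control library.

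Per kilobase of transcript, the 8 genes spanned a wide range of levels. In the control library the order was Ass1, Gatm, Odc1, Sat1, Asl, Oat, Agmat and Nos2. Ass1 stood at 45949 scaled reads per kilobase, 3.20 times the level of Gatm [3.16 to 3.24], and ranked 18 among the 17820 genes with a transcript length. In the CKO library the order was Ass1, Gatm, Sat1, Oat, Odc1, Asl, Agmat and Nos2. Odc1 thus stood behind Sat1 and Oat in the CKO library only, and Asl behind Oat. Gatm and Sat1 nearly met in the CKO library, with a ratio of levels of 1.03 [1.01 to 1.05]. In both libraries each gene differed from the next in the order beyond counting error. With the reads of genes that share sequence added, however, Sat1 (8079) passed Gatm (8063) in the CKO library. That sum counts all 519 CKO reads of Gm5552, although Sat1 shares only 4 of its 1253 stretches of 100 bases. The spread between mice was not measured.

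**Figure D2:**
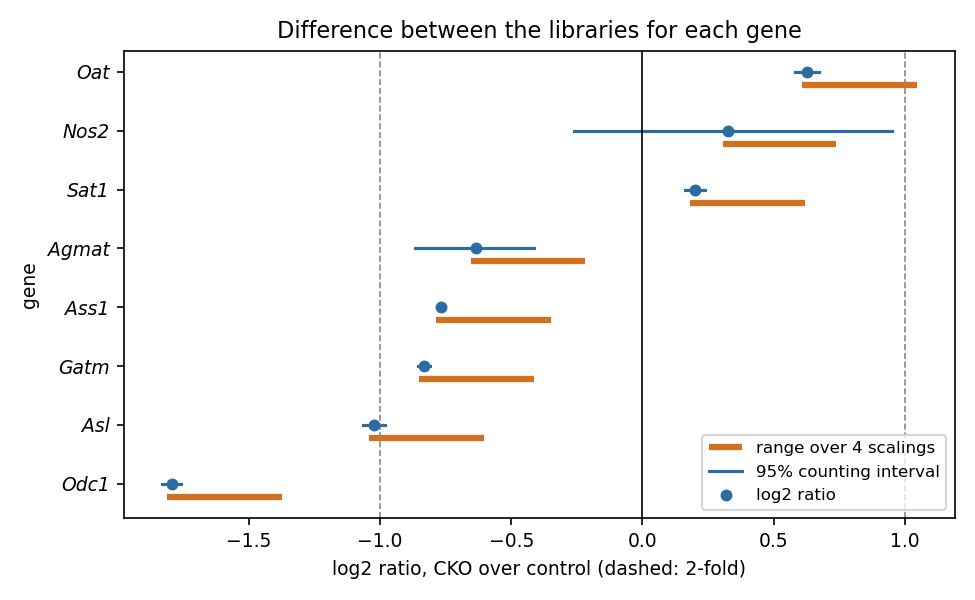
Log2 ratio of CKO over control for each of the 8 genes (blue points) with its 95% counting interval (blue lines), and the range of that ratio over 4 scalings between the libraries (orange bars). Dashed lines mark 2-fold; Odc1 (-1.79) lies beyond it under each of these scalings, and Asl (-1.02) and Oat (0.63) cross it under some of them.

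Promoter sequences were found for 6 of the 8 genes, with 7 promoters because Agmat had 2 starts. Each covers 250 bases before to 50 bases after the start of transcription and was taken from RefSeq for GRCm38.p6. Asl and Nos2 had no entry in the promoter table. Those of Ass1, the most abundant of the genes, Oat, the highest by ratio, and Odc1, the lowest by ratio, are printed so that genes of unlike behaviour can be compared. Ass1 lies at chr2:31470020-31470319 on the plus strand, Oat at chr7:132576349-132576648 on the minus strand and Odc1 at chr12:17544623-17544922 on the plus strand; capitals mark matches to the motifs searched.
Ass1: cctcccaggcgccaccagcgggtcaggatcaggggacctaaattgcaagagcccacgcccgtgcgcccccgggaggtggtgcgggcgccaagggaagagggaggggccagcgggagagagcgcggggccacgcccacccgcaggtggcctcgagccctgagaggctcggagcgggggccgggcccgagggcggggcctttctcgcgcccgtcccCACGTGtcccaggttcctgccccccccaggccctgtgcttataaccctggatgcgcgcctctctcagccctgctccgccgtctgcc
Oat: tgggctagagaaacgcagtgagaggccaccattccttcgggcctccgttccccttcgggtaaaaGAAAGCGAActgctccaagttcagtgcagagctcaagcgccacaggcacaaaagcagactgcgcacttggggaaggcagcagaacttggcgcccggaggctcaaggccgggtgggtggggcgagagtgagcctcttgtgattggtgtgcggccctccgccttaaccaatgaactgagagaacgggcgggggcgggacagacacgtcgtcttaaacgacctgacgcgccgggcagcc
Odc1: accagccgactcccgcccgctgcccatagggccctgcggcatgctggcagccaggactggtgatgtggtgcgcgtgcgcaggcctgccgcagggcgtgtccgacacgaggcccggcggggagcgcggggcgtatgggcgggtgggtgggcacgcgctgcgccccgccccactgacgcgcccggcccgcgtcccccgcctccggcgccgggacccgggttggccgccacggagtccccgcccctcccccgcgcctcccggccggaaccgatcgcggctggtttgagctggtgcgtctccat

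On both strands 4 motifs were searched: the kappaB core GGGANTNTC, the core of the interferon-stimulated response element GAAANNGAA, the E-box CACGTG and the TATA box TATAAA. Ass1 held CACGTG at -36 from the RefSeq start of transcription, and Oat held GAAAGCGAA at -186, which fits GAAANNGAA. The GENCODE start of Ass1 (31470207) lies upstream of its match, so those letters fall inside the GENCODE gene. The other 5 promoters, those of Odc1, Gatm and Sat1 and both of Agmat, held none of these letters. Of all 32851 promoters in the table, 7.15% held CACGTG, 8.56% GAAANNGAA, 3.49% the kappaB core and 13.6% TATAAA. A match describes letters and was not tested as a binding site. Base composition differed among them. Odc1 was at 78% G and C with 42 CG dinucleotides, and Ass1 at 74% with 27. The promoters of Agmat had 2 and 4 CG dinucleotides, against a median of 7 and of 52.7% G and C over all promoters. Gatm, Oat and Sat1 lay between, with 22, 22 and 21 CG dinucleotides.

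Both enzymes of arginine synthesis had log2 ratios below 0, and Asl alone was called lower. Ass1, argininosuccinate synthase (Entrez Gene 11898, chr2:31470207-31520672, plus strand, 16 exons in GENCODE M21), gave 77930 control and 68600 CKO reads. After scaling, the log2 ratio was -0.77 [-0.78 to -0.75], which is 0.587 times the control level and inside the 2-fold threshold. Asl, argininosuccinate lyase (Entrez Gene 109900, chr5:130011258-130029247, minus strand), gave 11291 control and 8337 CKO reads. Its log2 ratio was -1.02 [-1.06 to -0.98], 0.492 times the control level, and its interval included 2-fold. Asl was not called with equal totals (-0.60), with equal upper quartiles (-0.99) or as deposited (-0.43). Within a library, where no scaling enters, the reads of Asl were 0.145 times those of Ass1 for control kidney and 0.122 times for CKO kidney. That ratio was 0.839 times as large in the CKO library [0.814 to 0.864], so the second enzyme of the pair was lower by a little more than the first.

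Part of the Ass1 transcript has a near copy elsewhere in the genome. Of its 1597 stretches of 100 bases, 38.9% also occur in Gm5424, with 1128 control and 916 CKO reads and a log2 ratio of -0.88. How reads that fit both were assigned was not stated. With the reads of Gm5424 added, the ratio of Ass1 was -0.77 again. Carbamoyl phosphate synthetase (Cps1) and ornithine transcarbamylase (Otc), the mitochondrial steps that make citrulline in liver and gut, were not analysed here. Nags, which makes the activator of Cps1, had 10 reads in each library.

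Whole-kidney RNA mixes cell types, and fewer cells of a type and less RNA per cell cannot be told apart. Of the proximal tubule markers, 11 of 12 had log2 ratios below 0, 3 of them called lower (Slc34a1, Slc22a6 and Miox) against 5.35% of all genes, with a median of -0.76. That median became -0.35 with equal totals and -0.18 as deposited, and in both only Slc22a6 kept its call, while Hnf4a was called in addition with the column minimum subtracted, and Hnf4a and Fbp1 with the median of expressed genes set to 0. They ranged from -1.62 for Slc22a6, a transporter of organic anions, to 0.41 for Slc5a12, a lactate transporter. Their summed reads were 561522 for control and 468260 for CKO, led by the phosphate transporter Slc34a1 with 147064 and 98124. Set against this sum within each library, Ass1 and Gatm differed by log2 ratios of 0.08 and 0.02, Asl by -0.18 and Agmat by 0.21. Odc1 was at -0.95 on this scale, Oat at 1.47, Sat1 at 1.05 and Nos2, with few reads, at 1.18. The part of proximal tubule content in these differences was not tested.

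Of the enzymes that use arginine or its products, Nos2, the inducible nitric oxide synthase (Entrez Gene 18126, chr11:78920787-78960254, plus strand), was close to the limit of what the depth can show. The control library held 37 reads of it and the CKO library 70, for a log2 ratio of 0.33 [-0.26 to 0.95]. The interval excluded 0 with equal totals (0.74 [0.16 to 1.37]) but with none of the 3 other scalings, so a difference in Nos2 depends on the scaling as well as on depth; as deposited it was 0.75. Agmat, which hydrolyses agmatine, the product of arginine decarboxylation, to putrescine and urea (Entrez Gene 75986, chr4:141746672-141759263, plus strand), gave 330 control and 318 CKO reads. Its log2 ratio was -0.64 [-0.87 to -0.41], which turned to 0.016 when the deposited values were used unchanged. With equal totals it was -0.22 [-0.45 to 0.0072], an interval that included 0.

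The nitric oxide list of 11 other genes, all kept, held 1 gene called higher and 2 called lower, against 13.4% and 5.35% of all genes, with a median of 0.31 that became 0.72 with equal totals and 0.85 as deposited. With either of these, both lower calls (Ddah1 and Gchfr) were lost and 4 genes were called higher, where the shares over all genes were 21.9% and 17.9%. Ddah1, which breaks down the synthase inhibitor dimethylarginine, gave 14813 control and 9075 CKO reads, a log2 ratio of -1.29 [-1.33 to -1.25], and was the most abundant of the list. Its relative Ddah2 went the other way, with 328 and 999 reads, a log2 ratio of 1.02 [0.84 to 1.21]. Gchfr, the feedback protein of GTP cyclohydrolase, had 802 and 555 reads, a log2 ratio of -1.11 [-1.27 to -0.96]. The other synthases stayed within 2-fold: Nos1 had 38 and 71 reads, and Nos3, the endothelial form, had 228 and 446 with a log2 ratio of 0.38 [0.15 to 0.62].

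The first enzyme of creatine synthesis, Gatm, had a log2 ratio near that of Ass1 and was not called. Gatm, glycine amidinotransferase (Entrez Gene 67092, chr2:122594467-122611303, minus strand), gave 34281 control and 28895 CKO reads. The log2 ratio was -0.83 [-0.85 to -0.81], 0.562 times the control level. Gamt, which methylates guanidinoacetate to creatine, gave 577 and 466 reads, a log2 ratio of -0.89 [-1.07 to -0.71]. The ratio of Gamt to Gatm reads was 0.0168 for control and 0.0161 for CKO kidney; a change in it was not detectable at this depth (0.958 times as large [0.847 to 1.08]). The ratio of Agmat to Gatm also showed no detectable change, at 1.14 times as large [0.979 to 1.33]. In the creatine list 4 of 6 genes were in the table, 0 were called, against 13.4% called higher and 5.35% called lower of all genes, and the median of -0.44 became -0.018 with equal totals and 0.15 as deposited, where Ckmt1 was called higher. Slc6a8, the creatine transporter and the most abundant of the list, gave 7092 and 9142 reads, a log2 ratio of -0.22 [-0.26 to -0.17]. Ckmt1, a mitochondrial creatine kinase, was the highest at 0.47.

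Of the enzymes that act on ornithine, Odc1 was called lower, Oat had a ratio above 0 but was not called, and the order of their reads reversed. Oat, ornithine aminotransferase (Entrez Gene 18242, chr7:132557478-132576398, minus strand), gave 5881 control and 13626 CKO reads. Its log2 ratio was 0.63 [0.58 to 0.67], at percentile 79.4 of all genes and inside 2-fold. With equal totals it was 1.05 and past the threshold. Oat overlaps Fgfr2 on the same strand, a gene with 332 and 1006 reads and a log2 ratio of 1.01. How reads in the overlap were assigned was not stated. Odc1, ornithine decarboxylase (Entrez Gene 18263, chr12:17544794-17551505, plus strand, 12 exons), gave 19769 control and 8550 CKO reads. Its log2 ratio was -1.79 [-1.83 to -1.76], 0.288 times the control level, at percentile 1.24 of all genes. Over the scalings tried the ratio ran from -1.81 to -1.38, with -1.20 for the deposited values unchanged. Within a library, Odc1 reads were 3.36 times those of Oat for control kidney and 0.627 times for CKO kidney, a ratio 5.36-fold lower [5.15 to 5.57].

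Several genes share sequence with Odc1. Of 2109 stretches of 100 bases in Odc1, 19.6% also occur in 9 other genes, of which 6 were in the table. Gm7993 gave 5040 control and 2187 CKO reads, a log2 ratio of -1.79, and Gm17709 had 713 and 310 reads, a log2 ratio of -1.78. Gm9115 was at -1.79 and Gm7278 at -1.62, while AW146154, which shares only 1 stretch, gave 219 and 453 reads and was at 0.46. Together the 6 genes held 24.4% of the reads summed with Odc1 for control kidney and 26.8% for CKO kidney. How many of these reads came from Odc1 is not known, so its level is uncertain. With the reads of the 6 genes added, scaled reads per kilobase went from 8953 to 11836.5 for control kidney and from 2582 to 3526 for CKO kidney. The log2 ratio was then -1.75, and the call was kept.

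In mouse kidney Odc1 is known to respond to androgen, and genes of the same kind were lower too. Of 8 androgen-responsive kidney genes, 8 were called lower, against 5.35% of all genes, from -1.96 for Cyp2j13 to -4.35 for Acsm3, with a median of -2.82. Their summed reads were 1329542 for control and 186931 for CKO, and Kap, the most abundant, had 987520 and 104163. Y-linked genes were present in both libraries, and 4 of 4 were kept. Of these, 0 were called, against 13.4% called higher and 5.35% called lower of all genes. Eif2s3y, the most abundant of them, had 2129 and 3798 reads. Proximal tubule markers (median -0.76) and genes from 10000 mean scaled reads up (median -0.59) also had medians below 0. The part of any of these groups of genes in the ratio of Odc1 was not tested. Among the kept genes, those nearest to Odc1 in log2 control reads and log2 ratio, by Euclidean distance over the 2 libraries, were Ephx2 (17748 and 7727 reads, log2 ratio -1.78), Acsm1 (-1.59) and Cyp2j13. Those nearest to Oat, the highest of the 8, were Rpl12 (6160 and 13990 reads, log2 ratio 0.60), Msn (0.74) and H2-D1 (0.77).

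Of the 4 polyamine breakdown genes listed besides Sat1, 2 were called higher and 0 lower, against 13.4% and 5.35% of all genes. Sat1, spermidine/spermine N-acetyltransferase (Entrez Gene 20229, chrX:155213132-155216449, minus strand), gave 9211 control and 15865 CKO reads. After scaling its log2 ratio was 0.20 [0.16 to 0.24], at percentile 62.5 of all genes, and it became 0.62 with equal totals and 0.78 as deposited. Relative to Odc1 the shift was larger: Sat1 reads were 0.466 times those of Odc1 for control kidney and 1.86 times for CKO kidney, a ratio 3.98 times as large [3.84 to 4.13]. Aoc1, a diamine oxidase that oxidizes putrescine, gave 212 control and 4484 CKO reads. Its log2 ratio was 3.81 [3.62 to 4.02], or 14.1-fold without the pseudocount, and it ranked 53 from the top of all genes. Smox, spermine oxidase, gave 148 and 464 reads, a log2 ratio of 1.06 [0.79 to 1.34], and its ratio to Odc1 was 7.25 times as large in the CKO library [6.01 to 8.74]. The breakdown list had a median of 0.64, which became 1.06 with equal totals and 1.13 as deposited, with Sat2 as its lowest at -0.53.

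**Figure D3:**
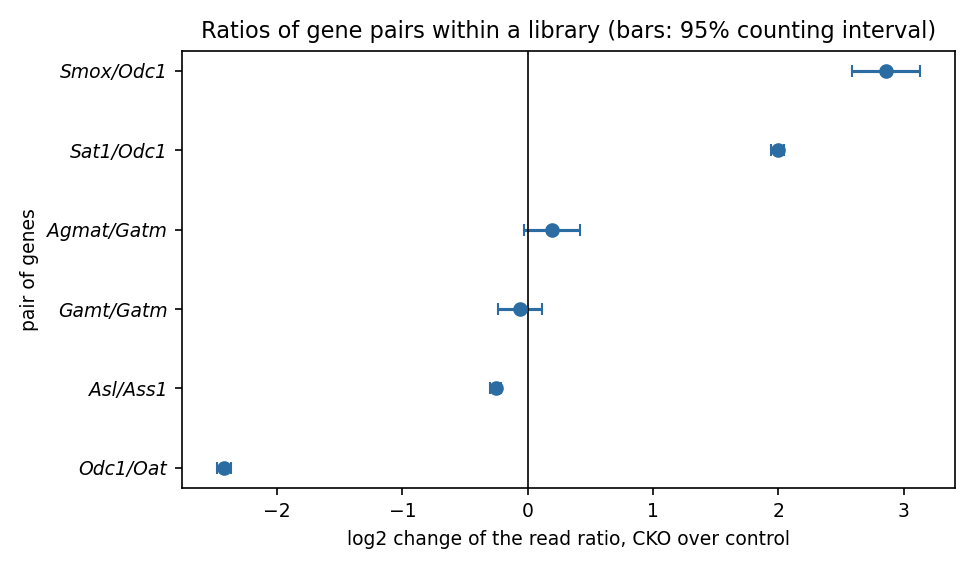
Change between the libraries, as log2 of CKO over control, in the ratio of reads of 2 genes counted in the same library, with 95% counting intervals. Ratios to Odc1 lie near 2 or above, the ratio of Odc1 to Oat lies at -2.42, and the intervals for Agmat to Gatm and Gamt to Gatm include 0.

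In the synthesis list, 8 of 9 genes were in the table and 0 were called, against 13.4% called higher and 5.35% called lower of all genes. Its median of -0.12 changed sign with equal totals (0.30) and as deposited (0.47). Sms, spermine synthase, was the lowest at -0.77 [-0.87 to -0.67], and Amd1, which supplies the aminopropyl donor, was the highest at 0.24. Oaz1, an antizyme that leads the Odc1 protein to degradation and the most abundant of the list, gave 7052 and 7281 reads, a log2 ratio of -0.54 [-0.59 to -0.49]. The hypusine list, whose genes encode the translation factor modified with spermidine and the enzymes that modify it, had 4 genes in the table. Eif5a2 alone was called higher (13.4% of all genes), with 205 and 742 reads and 2.41 times the control level, a log2 ratio of 1.27, and Eif5a, the abundant form with 12420 and 13708 reads, had -0.44. The median of -0.14 changed sign with equal totals (0.28) and as deposited (0.44).

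Ornithine and proline exchange held 1 gene called higher among 6, near the share over all genes (13.4%). Aldh18a1, the enzyme that starts proline synthesis from glutamate, gave 53 control and 323 CKO reads, 4.06 times the control level after scaling, with an interval of its log2 ratio from 1.60 to 2.47. Aldh4a1, a mitochondrial enzyme of proline breakdown and the most abundant of the list, had 18508 and 15345 reads and was the lowest at -0.86 [-0.89 to -0.82]. The median of -0.31 changed sign with equal totals (0.11) and as deposited (0.28).

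Of 13 transport genes, 11 were kept, 3 were called higher and 0 lower, against 13.4% and 5.35% of all genes. Their median of 0.09 became 0.54 with equal totals and 0.63 as deposited. Slc7a6 gave 156 control and 776 CKO reads, a log2 ratio of 1.72 [1.48 to 1.99]. Slc7a1, the widely expressed arginine carrier, gave 254 and 1004 reads, a log2 ratio of 1.39 [1.20 to 1.60]. Slc7a2 gave 83 and 251 reads and lay at the threshold, 2.02 times the control level, with an interval of its log2 ratio from 0.65 to 1.39; it was not called with the median of expressed genes set to 0 (0.98), the column minimum subtracted (0.996) or a pseudocount of 10 (0.93). The apical carrier subunit Slc3a1, the most abundant of the list, had 28345 and 27372 reads and was the lowest at -0.64 [-0.66 to -0.61]. Over all these pathway lists, 51 of 57 genes were in the table and 49 were kept, of which 8 were called higher and 2 lower, shares near those of all genes (13.4% and 5.35%); the median was -0.0033, against 0.022 for all genes.

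**Figure D4:**
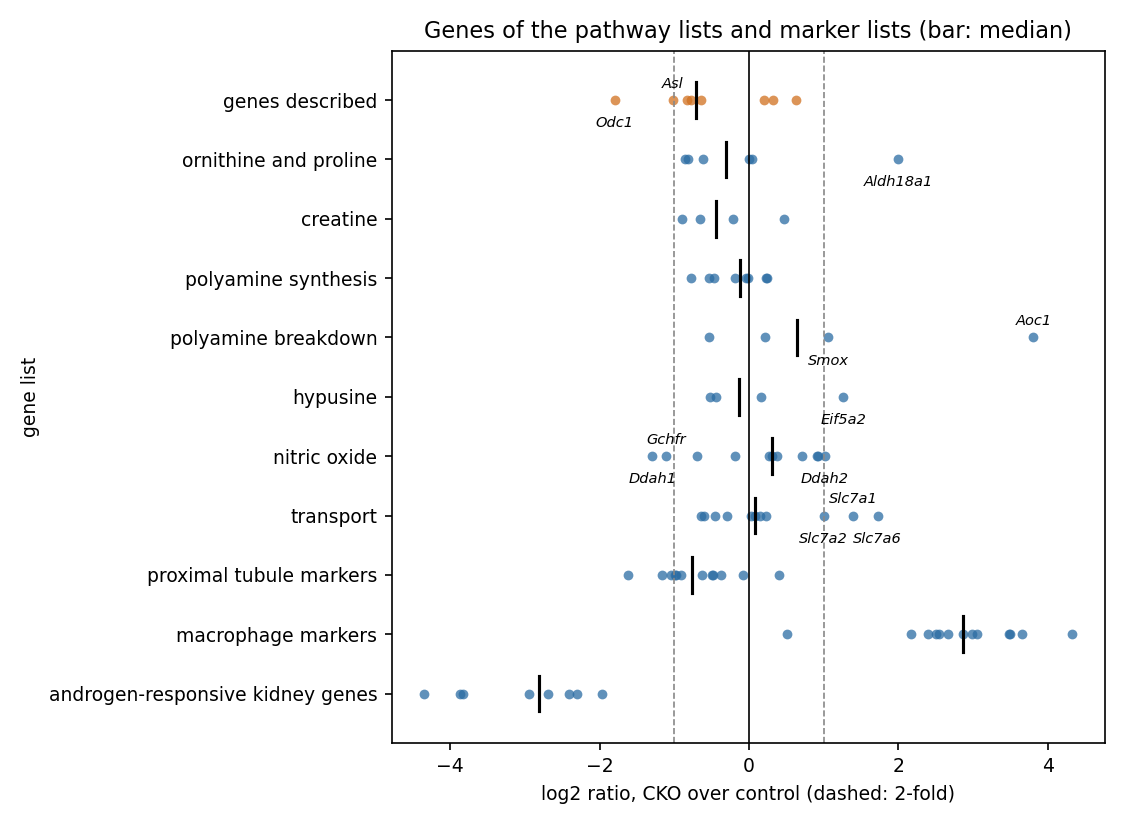
Log2 ratio of CKO over control for each kept gene of the 8 described (orange) and of the pathway and marker lists (blue); black bars are medians and dashed lines mark 2-fold. Called genes of the pathway lists are named; proximal tubule markers have a median of -0.76, macrophage markers of 2.87 and androgen-responsive genes of -2.82, and several pathway medians near 0 change sign with equal totals or the values as deposited.

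Markers of some other cell types differed between the libraries. Inducible nitric oxide synthase and Slc7a2 are also known from macrophages, so macrophage markers are given beside these genes. All 13 macrophage markers were in the table, 12 were called higher (13 as deposited), against 13.4% of all genes, and the median log2 ratio was 2.87. Their summed reads were 4297 for control and 32277 for CKO, with Ms4a7 the highest at 4.33 and Lyz2 at 518 and 9836 reads. Csf1r, the most abundant in the control library, gave 2244 and 4803 reads, a log2 ratio of 0.51 [0.44 to 0.59]. Set against the summed macrophage marker reads within each library, Nos2 was at -1.99, Sat1 at -2.12 and Oat at -1.70. Against the proximal tubule sum these genes were above 0, so their sign depends on the marker sum used. Of 11 neutrophil markers 3 were in the table and 2 were called higher, against 13.4% of all genes. With equal totals 3 were called, against 21.9% of all genes, and with at least 50 reads Csf3r alone was kept and called. The summed reads of the 3 markers were 42 and 260, with Csf3r the most abundant. The part of these cells in the ratios of Nos2 and Slc7a2 was not tested.

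Markers of other kidney cells, such as thick ascending limb, collecting duct, podocyte and endothelium, had 0 of 9 genes called, against 13.4% called higher and 5.35% called lower of all genes, and a median of -0.07. It became 0.35 with equal totals, where Aqp2 was called higher, and 0.52 as deposited, where Aqp2 and Umod were. Their summed reads before scaling were 148021 for control and 272462 for CKO, with Umod the most abundant at 90047 and 187056. After scaling the log2 ratio was 0.30 for the sums and 0.47 for Umod. All 6 of the injury markers read, of 7 listed, were called higher, against 13.4% of all genes, with a median of 3.75 and summed reads of 19421 and 483756, of which Spp1 gave 15360 and 412220. Lcn2 was the highest at 6.45. Hepatocyte markers, where 5 of 6 were in the table, had 2 called lower (Apoa2 and Ttr, against 5.35% of all genes; Ttr alone as deposited, with a pseudocount of 10, with at least 50 reads and with equal totals, where Serpina1e was called higher) and 0 higher and summed to 3083 and 1115 reads, most of them Ttr with 2889 and 860; their median of -0.53 became 0.21 with the values as deposited. The 3 erythroid markers read, of 4 listed, summed to 9682 and 14388 reads before scaling, a log2 ratio of -0.013 after it, with Hbb-bs the most abundant. Of the 3, 0 were called, against 13.4% called higher and 5.35% called lower of all genes. Their median of -0.01 became 0.019 with equal upper quartiles, 0.41 with equal totals and 0.57 as deposited.

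**Figure D5:**
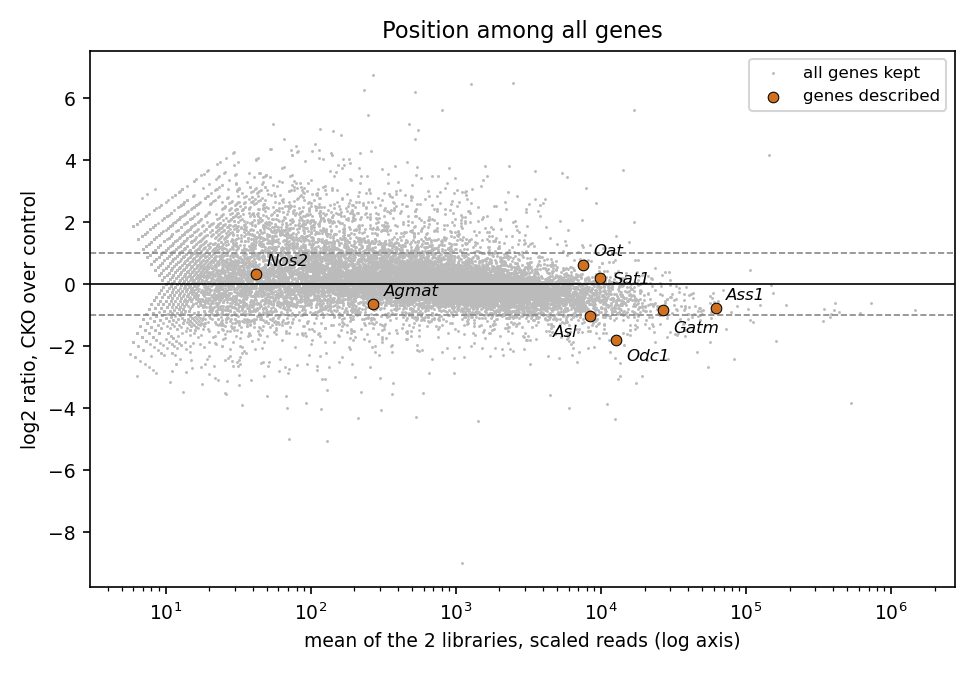
Log2 ratio of CKO over control against the mean scaled reads of the 2 libraries (log axis) for all 17469 genes kept (grey) and the 8 genes described (orange); dashed lines mark 2-fold. The median is lower for abundant genes, at -0.59 from 10000 mean scaled reads up and 0.32 from 10 to under 100.

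Log2 ratios depended on abundance, which bears on how the abundant members are read. From 10000 mean scaled reads up, 432 genes had a median of -0.59, with -1.32 at percentile 10. Within this class 35.4% of the genes were at or below Ass1 and 29.9% at or below Gatm, while 4.63% were at or below Odc1. From 1000 to under 10000 mean scaled reads, 5512 genes had a median of -0.15, and here 3.57% were at or below Asl, 94.5% at or below Oat and 82.8% at or below Sat1. From 100 to under 1000, with a median of 0.12, 6.73% were at or below Agmat. Nos2 lay in the middle of the genes from 10 to under 100, with 50.1% at or below it.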

How the data were processed

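The deposited values are a score: whole numbers that the authors name normalized counts, 1 column per library, whose totals differ and which carry a constant. The authors aligned reads from TruSeq Stranded mRNA libraries with STAR 2.7.3a, used HTSeq for counting and applied DESeq2 normalization; the submitters' processing notes also name edgeR, FastQC, Cufflinks 2.2.1 and mm10. Genes and lists were chosen with earlier results of these data known, and further genes of the same pathway are not reported here and enter no count or median over the 8 genes. The column minimum minus 1 was taken as the constant and subtracted, which is an inference from the values, and CKO reads were scaled by the median gene ratio. A gene was kept if either library reached 10 scaled reads, and 2-fold was the threshold. With 1 library per group no test was made. Clopper-Pearson intervals of log2 ratios and Woolf intervals of ratios between genes cover counting error only. Both assume that the subtracted values are raw counts. Named are the 8 genes, Zc3h12b, genes of the chosen pairs, for each list the called (at most 6), highest, lowest and most abundant, and the 3 genes nearest to the highest and lowest member; Nos1, Nos3 and the genes sharing sequence or position with a member were chosen after their values were seen, as were those named for calls that change under an alternative. Lengths, exons and positions came from GENCODE M21 for GRCm38, the same assembly as mm10, with a transcript length for 17820 genes, and promoters from RefSeq. Alternatives were 3 other scalings, values as deposited, the column minimum as constant, a pseudocount of 0.1 or 10, a minimum of 50 reads or none, and 1.5-fold or 4-fold. Scripts were first tested on simulated reads. Python 3.11.15, numpy 2.4.6, pandas 2.3.3, scipy 1.17.1 and matplotlib 3.10.9 were used.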

Additional observations from a re-analysis of the deposited data

How the results depend on the processing

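No paired analysis was possible because there was only 1 library per group. The spread between mice is unknown, and depth limited genes with few reads, such as Nos2 (37 and 70 reads) and Zc3h12b. Scaling to equal totals moved the median log2 ratio of all genes to 0.44, and the values as deposited to 0.57, against 0.022 in the main setting. Called genes were 3870 higher and 437 lower with equal totals, 3574 and 131 as deposited, 3801 and 2423 at 1.5-fold and 749 and 166 at 4-fold, and at least 50 reads gave 617 lower. The share of higher among called genes was 71.4%, against 89.9% with equal totals, 96.5% as deposited, 61.1% at 1.5-fold and 81.9% at 4-fold.

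Of the 8 genes described, 0 were called higher, but 1, Oat, with equal totals, as deposited and at 1.5-fold. Called lower were 1 with equal totals, equal upper quartiles and the values as deposited, 5 at 1.5-fold and 0 at 4-fold. Their median was -0.28 with equal totals and -0.084 as deposited. Medians that changed sign with equal totals were ornithine and proline 0.11, polyamine synthesis 0.30, hypusine 0.28, other kidney cell markers 0.35 and erythroid markers 0.41 (0.019 with equal upper quartiles). As deposited, the same lists gave 0.28, 0.47, 0.44, 0.52 and 0.57, and urea cycle gave 0.44, creatine 0.15, hepatocyte markers 0.21, Agmat alone 0.016 and the log2 change of the Gamt to Gatm ratio 0.0017. By construction equal totals shift the ratios of all genes upward. The values as deposited are not scaled by 0.667, which raises ratios, and they also keep the constants. These constants draw low-read genes to the value they set themselves, 50 over 34, as in the neutrophil median (1.64, and 1.26 as deposited). A ratio of genes within a library does not depend on the scaling. It is moved by the constants left in the deposited values, and slightly with the column minimum subtracted. The signs of the 8 genes, the list medians and the pairs were tallied without the filters, which cannot change the ratio of a gene. Of these values 173 kept their sign, and 16, those given above, did not. The tally includes the pseudocounts of 0.1 and 10, with 25 values each. A pseudocount cannot change the sign of a gene's ratio, so kept signs there carry little information. Single genes outside this tally also turned, such as Zc3h12b (-0.25, and 0.16 with equal totals) and Apoa2 (-1.36, and 0.21 as deposited). Over the pathway lists, 8 of 49 kept genes were called higher and 2 lower, against 13.4% and 5.35% of all genes. With equal totals this became 11 and 0 of 50 (21.9% and 2.47% of all genes). As deposited it was 12 and 0 of 51 (17.9% and 0.65%), and in both of these settings Ddah1 and Gchfr lost their calls. At 1.5-fold it was 11 and 11 of 49 (21.8% and 13.9%), and at 4-fold 2 and 0 of 49 (4.29% and 0.95%). Adding the reads of genes that share 100-base stretches was chosen after seeing the data and gave -0.77 for Ass1, -1.75 for Odc1 and 0.19 for Sat1. A comparison of protein sequences was not run.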
